A study of Mus musculus with 8 samples.

Results

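The cytosolic ribosomal protein genes are described here in mouse bone marrow-derived macrophages after 6 h of 3 cytokine treatments. Members were the genes measured by a probe set that carries exactly 1 gene symbol in the platform annotation, with a symbol made of Rps or Rpl and a subunit number or of Rplp0 to Rplp2, with or without a final a or l. Where a gene had several such probe sets, the one with the highest mean over the 8 arrays stood for it. The rule gave 57 genes among 19938 named genes, 20 of the small subunit and 37 of the large subunit. RefSeq holds 81 symbols of this form, and 16 of the others were measured only by probe sets that carry several symbols. Of the 57, 56 are annotated as protein coding and 1, Rps4l, as a transcribed pseudogene. The probe sets of 54 members list a RefSeq mRNA, and those of Rpl12, Rplp2 and Rps4l do not.

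Macrophages grown from bone marrow were left untreated, or were exposed for 6 h to IFN-gamma/LPS, to IL-4/IL-13 or to LPS/IL-4/IL-13. Interferon gamma with lipopolysaccharide (LPS, a bacterial cell wall component) is the classical inflammatory stimulus, and interleukins 4 and 13 drive the alternative activation state. LPS/IL-4/IL-13 combines parts of both, without interferon gamma. Each group had 2 arrays. No group received LPS alone or interferon gamma alone, and the labels give no strain, age, dose or pooling. The labels leave unsaid whether a group's 2 arrays stem from different animals or dishes, so p-values measure the spread between these arrays, which may be technical.

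The ribosome is built from ribosomal RNA and a set of proteins of which each ribosome carries about equal amounts, and cells make these proteins in step. Most of their messenger RNAs begin with a run of pyrimidines, the 5′ terminal oligopyrimidine (TOP) tract, through which mTOR signalling and the RNA-binding protein Larp1 control their translation and stability. In macrophages, innate and cytokine signals feed into mTOR, and some ribosomal proteins also act outside the ribosome in immune signalling and the p53 response.

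RefSeq promoter sequence on GRCm38.p6 was matched for 45 of the 57 members, with 54 annotated start sites. The windows below run from 80 bases before to 20 bases after the start and show, as examples, the start-site pyrimidine run of members whose values are described below, with the run in capitals (at least 5 C or T beginning with C, within 20 bases of the start). Rps7 was lowest under LPS/IL-4/IL-13, Rps18 fell in both groups given LPS and not under IL-4/IL-13 alone, Rps6 was the brightest member and changed little, and Rpl24 was the 1 member called higher under LPS/IL-4/IL-13. No such run was found within 20 bases of the Rpl24 start, although its window holds a run of C and T further upstream. Rpl10a and Rps27l, both lower in the groups given LPS, each also have an annotated start site without such a run.
Rps7, chr12:28635934-28636033, minus strand: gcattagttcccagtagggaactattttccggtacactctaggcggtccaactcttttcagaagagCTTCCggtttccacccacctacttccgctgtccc
Rps18, chr17:33955646-33955745, minus strand: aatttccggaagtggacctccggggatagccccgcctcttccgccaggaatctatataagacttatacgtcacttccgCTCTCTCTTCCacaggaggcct
Rps6, chr4:86857348-86857447, minus strand: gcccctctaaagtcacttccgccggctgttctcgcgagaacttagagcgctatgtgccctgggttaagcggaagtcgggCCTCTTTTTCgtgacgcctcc
Rpl24, chr16:55966195-55966294, plus strand: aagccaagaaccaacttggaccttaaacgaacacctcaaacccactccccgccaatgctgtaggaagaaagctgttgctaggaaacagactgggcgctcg
The runs of Rps18 and Rps6 are 11 and 10 bases long and span the annotated start. The marked run of Rps7 is 5 bases long and begins 14 bases before it, and an unmarked run of the same length follows the start. Such a run was found at 38 of the 54 member start sites (70.4%) and at 45.9% of all 32851 RefSeq promoters. Counted by gene, 36 of the 45 members with a promoter had one, as did 26 of the 33 such members that were lower under IFN-gamma/LPS. CCGGAAG, the core that ETS factors such as GABP bind, was present on either strand in the 300-base promoter at 18 of 54 member start sites (33.3%), against 8.86% of all promoters. CACGTG, the E-box that Myc can bind, was present at 7 (13.0%, against 7.15%). AAGATGGC, a YY1 motif, was present at 2 (3.70%, against 2.75%). TATAAA was present at 6 (11.1%, against 13.6%). A match describes the letters in the window and not a site in use.

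Ribosomal protein transcripts were among the brightest on the arrays. On the log2 signal scale 13 members lay in the top 1% of named genes by mean signal, 29 in the top 5% and 42 in the top 10%, and 4 lay below the median. The brightest were Rps6 (mean over 8 arrays 12.95), Rpl10 (12.84) and Rpl21 (12.68), while the highest value of any probe set on an array was between 13.59 and 13.71. Signals this close to the ceiling limit the size of change that can be seen. The dimmest were Rpl3l (4.42), Rpl39l (5.16) and Rpl10l (5.61), paralogues known mainly from muscle (Rpl3l) and testis. Signal also depends on the probes, so levels are not compared between genes beyond this rank.

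The cells carried the markers of macrophages: all 8 listed markers (among them Csf1r, Adgre1 and Cd68) lay above the median of named genes in every group, and their summed signal, on the log2 scale, stayed between 15.08 and 15.31. Single markers moved: under IFN-gamma/LPS 5 of the 8 were lower and 2 higher, with Csf1r at -1.085 and Fcgr1 at 1.44. The summed signal of 5 dendritic cell markers was lower but moved with treatment, from 7.73 and 7.79 in untreated cells to 8.91 and 9.04 under IFN-gamma/LPS, 8.06 and 8.12 under IL-4/IL-13 and 8.49 and 8.64 under LPS/IL-4/IL-13. The 3 measured B lymphocyte markers summed to 8.26 and 8.19 in untreated cells, 7.39 and 7.17 under IFN-gamma/LPS, 8.16 and 8.21 under IL-4/IL-13, and 8.32 and 8.52 under LPS/IL-4/IL-13. The 6 fibroblast markers summed to 9.41 on both untreated arrays, 9.63 and 9.70 under IFN-gamma/LPS, 9.35 and 9.49 under IL-4/IL-13, and 9.74 and 9.72 under LPS/IL-4/IL-13. The 2 erythroid markers summed to 6.51 and 6.53 in untreated cells and to between 6.72 and 6.99 in the treated groups. The B lymphocyte sum was thus low under IFN-gamma/LPS and the fibroblast sum high in both groups given LPS. Within these sums the genes differed. Under IFN-gamma/LPS Cd79b changed by -1.12 against untreated cells, while Cd79a (0.01) and Ms4a1 (0.035) were not called. Dcn rose by 1.365 under IFN-gamma/LPS and 1.745 under LPS/IL-4/IL-13. Of the other fibroblast markers only Pdgfrb was called against untreated cells, at 0.615 under IFN-gamma/LPS. Whether these shifts have a part in the results below was not tested. In these bulk samples a lower share of a transcript in the RNA and less of that transcript per cell cannot be told apart.

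Across the 8 arrays the members moved together by group. Their median signal was 10.84 and 10.75 in untreated cells, 10.49 and 10.29 under IFN-gamma/LPS, 10.34 and 10.40 under IL-4/IL-13, and 10.24 and 9.97 under LPS/IL-4/IL-13. Measured against each gene's own mean over the 8 arrays, 4 and 8 of 57 members lay below it on the untreated arrays, 15 and 11 on the IL-4/IL-13 arrays, 44 and 52 on the IFN-gamma/LPS arrays, and 38 and 52 on the LPS/IL-4/IL-13 arrays. The median deviations were 0.21 and 0.2075 in untreated cells, 0.115 and 0.111 under IL-4/IL-13, -0.1275 and -0.1975 under IFN-gamma/LPS, and -0.0775 and -0.23 under LPS/IL-4/IL-13. The 2 groups that received LPS were thus low for most members and the 2 that did not were high. In 14 members the group means ran from untreated through IL-4/IL-13 and IFN-gamma/LPS down to LPS/IL-4/IL-13, and in another 13 the last 2 changed places. The 2 LPS/IL-4/IL-13 arrays differed most from each other, by a median of 0.19 over the members (0.14 over all named genes), and 17 members were higher by more than 0.3 on the first of them against 4 on the second.

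**Figure D1:**
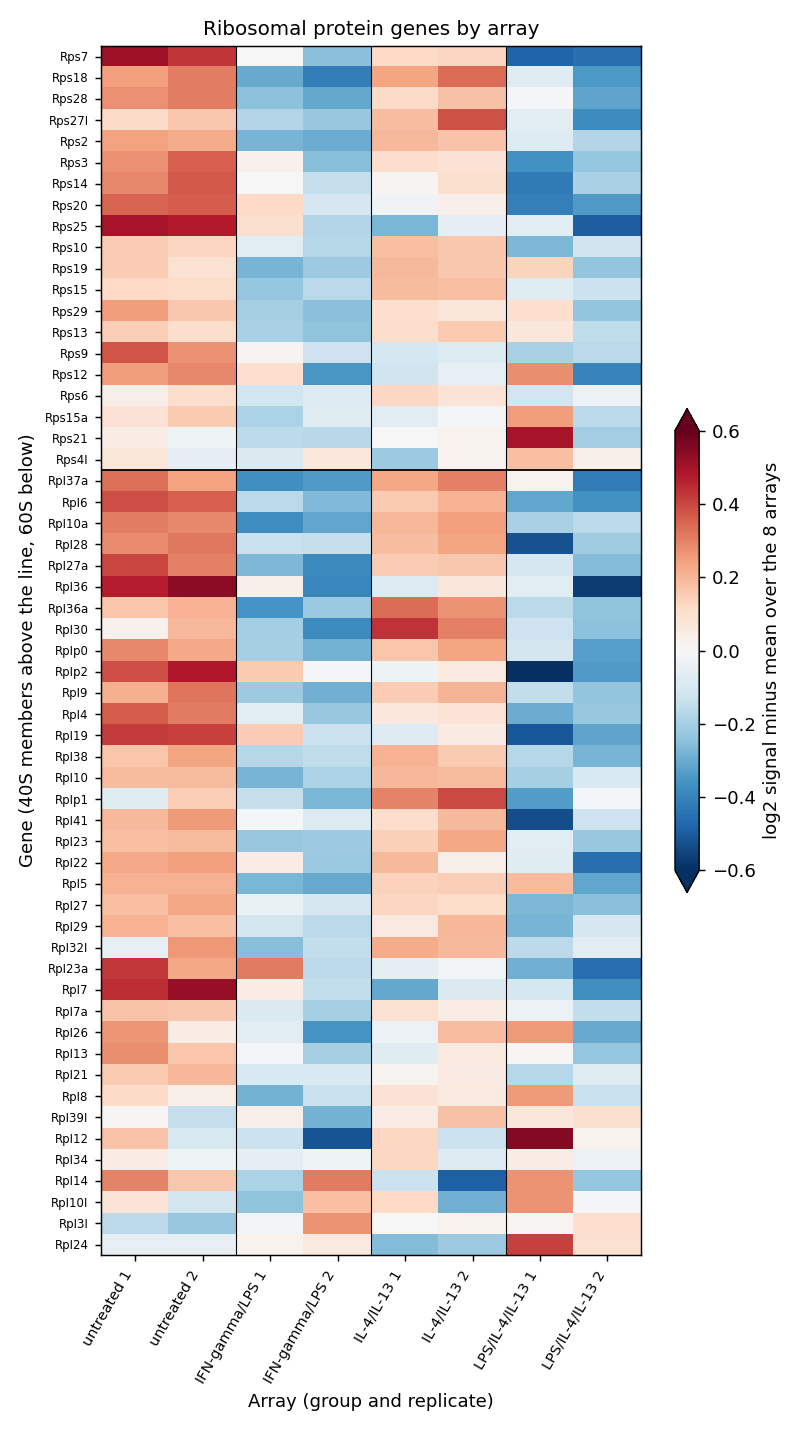
Deviation of each of the 57 ribosomal protein genes (rows, small-subunit genes above the line and large-subunit genes below) from its own mean log2 signal over the 8 arrays (columns), with red above and blue below the mean. The untreated and IL-4/IL-13 columns are mostly red and the columns of both LPS-containing groups mostly blue.

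The first comparison asks what the inflammatory stimulus did. Under IFN-gamma/LPS, 41 of 57 members were lower than in untreated cells and 0 were higher, with 28.4% of all named genes called lower, 23.6% higher and 51.9% called in either direction (limma, Benjamini-Hochberg adjusted p under 0.05). Genes in the top 10% of signal, where most members lie, were called lower in 44.8% and higher in 38.1%. The median change of the members was -0.365 on the log2 scale, with a range of -0.685 to 0.32, while the median over all named genes was 0.105. A negative change was measured in 55 members and a positive one in 2. Both subunits were involved, with 16 of 20 small-subunit members (median -0.375) and 25 of 37 large-subunit members (median -0.36) called lower. The groups did not overlap, with IFN-gamma/LPS lower, in 49 members, beside 33.9% of all named genes.

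The largest falls were modest in size. Rpl36, a large-subunit protein, read 11.23 and 11.30 in untreated cells and 10.79 and 10.37 under IFN-gamma/LPS, a change of -0.685 ± 0.155 (SE, 2 arrays a group), or 1.61-fold lower (limma adjusted p = 0.00273). Rpl27a, which lies in the large subunit, read 10.52 and 10.42 against 9.85 and 9.74, a change of -0.675 ± 0.083 (limma adjusted p = 2.04e-05). Rpl10a, a protein of the L1 stalk that guides spent tRNA out of the ribosome, read 12.24 and 12.22 against 11.56 and 11.62, a change of -0.64 ± 0.056 (limma adjusted p = 9.16e-07). In each of these genes both treated arrays lay below both untreated arrays. Rpl37a changed by -0.64, Rps18 by -0.635 and Rps7 by -0.595, and each passed the test. Rps18 sits in the head of the small subunit, where the subunits meet. It read 11.18 and 11.24 in untreated cells, 10.63 and 10.52 under IFN-gamma/LPS, 11.17 and 11.27 under IL-4/IL-13, and 10.86 and 10.59 under LPS/IL-4/IL-13. Both groups given LPS lay below all 4 other arrays, and both differed from IL-4/IL-13, by -0.645 and -0.495 (limma adjusted p = 6.62e-05 and 0.000706).

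The second comparison asks the same of alternative activation. Under IL-4/IL-13, 10 members were lower than in untreated cells and 0 were higher, beside 12.3% of all named genes called lower, 7.83% higher and 20.2% in either direction. The members called lower were 17.5% of the 57, and 25% of the genes in the top 10% of signal were called lower. The median change of the members was -0.08 and that of all named genes 0.07. The count rested on few arrays: it was 2 without the first IL-4/IL-13 array, 5 without the second, 4 without the first untreated array and 6 without the second.

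The 10 were Rps7, Rps9, Rps20 and Rps25 of the small subunit and Rpl4, Rpl6, Rpl7, Rpl19, Rpl36 and Rplp2 of the large subunit, and all 10 were also lower under IFN-gamma/LPS and under LPS/IL-4/IL-13, comparisons that share the untreated arrays. Rpl7 binds the RNA of the large subunit. It read 10.40 and 10.48 in untreated cells, 9.65 and 9.87 under IL-4/IL-13, 10 and 9.81 under IFN-gamma/LPS, and 9.85 and 9.59 under LPS/IL-4/IL-13. Its change under IL-4/IL-13 was -0.68 ± 0.109 (limma adjusted p = 0.000829), beside -0.535 and -0.72 in the other treatments. Rps25, a small-subunit protein needed by several viral internal ribosome entry sites, changed by -0.65 ± 0.133 under IL-4/IL-13 (limma adjusted p = 0.00431, and 0.0615 without the first IL-4/IL-13 array), and its change of -0.525 under IFN-gamma/LPS (limma adjusted p = 0.00557) was at 0.0501 without the second array of that group. Rps9, which lines the mRNA entry site, read 10.85 and 10.75 in untreated cells and 10.37 and 10.39 under IL-4/IL-13, a change of -0.42 ± 0.075 (limma adjusted p = 0.00186). The other probe set of Rps9, of the same brightness, changed by -0.21 under IL-4/IL-13 and -0.205 under LPS/IL-4/IL-13, against -0.505 for the one used in the latter. Rps20 changed by -0.35 (limma adjusted p = 0.00501, and 0.0534 without the first IL-4/IL-13 array). Rpl36 changed by -0.51 (limma adjusted p = 0.038), and leaving out either untreated array or either IL-4/IL-13 array ended that call, with adjusted p between 0.114 and 0.191. Rpl6 changed by only -0.19 (limma adjusted p = 0.0466), and leaving out any 1 of those 4 arrays ended its call too, with adjusted p between 0.132 and 0.26.

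Under the combination, LPS/IL-4/IL-13, 39 members were lower than in untreated cells and 1, Rpl24, was higher, beside 25.4% of all named genes called lower, 20.3% higher and 45.6% called in either direction. In the top 10% of signal 38.3% were called lower. The median change was -0.36 and the range -0.955 to 0.3, with 14 of 20 small-subunit members (median -0.3475) and 25 of 37 large-subunit members (median -0.385) called lower. The largest falls were in Rplp2, Rps7, Rpl19, Rpl36, Rps25 and Rps20, between -0.955 and -0.73. Of the 57 members, 27 (47.4%) were lower in both groups given LPS and not called under IL-4/IL-13, beside 14% of all named genes, and 10 (17.5%) were lower in all 3 treatments, beside 7.67%. Another 4 (Rpl32l, Rpl5, Rps13 and Rps19) were called lower only under IFN-gamma/LPS, 2 (Rpl22 and Rpl23a) only under LPS/IL-4/IL-13, and 13 were called in no treatment. A call in one comparison and not in another does not show that the changes differ.

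**Figure D2:**
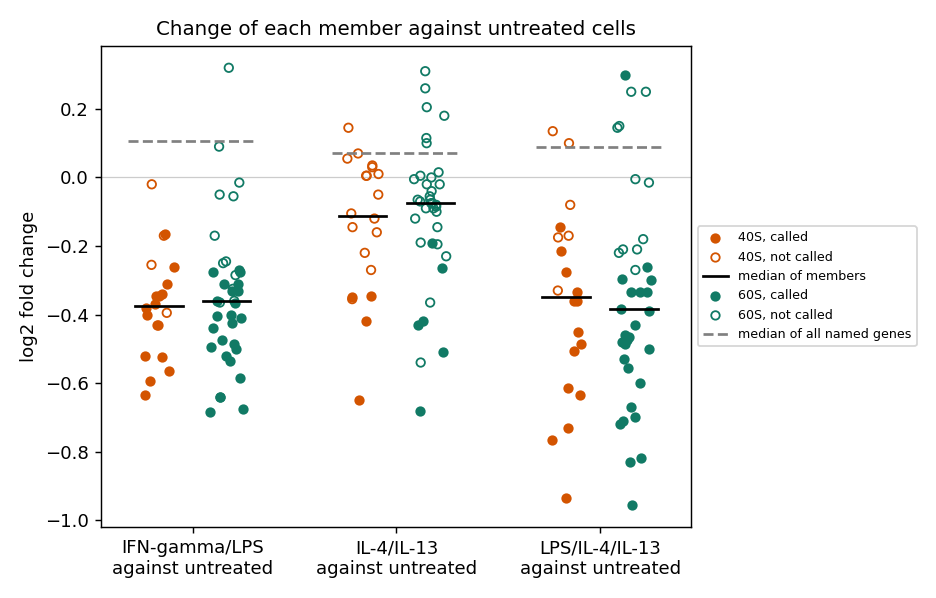
Log2 fold change against untreated cells of each small-subunit (orange) and large-subunit (green) member in the 3 treatments, with filled points called at a limma adjusted p under 0.05, black lines for the medians of the members and grey dashes for the median of all named genes. The member medians lie near -0.36 in both LPS-containing groups and near 0 under IL-4/IL-13.

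LPS/IL-4/IL-13 and IL-4/IL-13 differ by LPS, which allows the effect of adding LPS to the cytokines to be read without interferon gamma. With LPS added, 32 of 57 members were lower and 1 was higher, beside 22.6% of all named genes called lower, 14.1% higher and 36.7% in either direction, with 37.4% called lower in the top 10% of signal. The median change was -0.32, against -0.02 over all named genes. Rps7 changed by -0.59 ± 0.081 (limma adjusted p = 7.84e-05) and Rpl28, a large-subunit protein, by -0.58 ± 0.081 (limma adjusted p = 8.78e-05). Rpl28 read 12.75 and 12.80 under IL-4/IL-13 and 12.04 and 12.35 under LPS/IL-4/IL-13. Rpl30, which also regulates its own splicing in yeast, read 8.14 and 8.01 against 7.58 and 7.46, a change of -0.555 ± 0.109 (limma adjusted p = 0.0013). Of the 32 genes lower here, 31 (96.9%) were also lower under IFN-gamma/LPS against untreated cells, where they were 75.6% of the 41, and these 2 comparisons share no array. Over all named genes 3939 were lower in both, 87.5% of the 4504 lower here and 69.6% of the 5656 lower under IFN-gamma/LPS. Across the 57 members the 2 sets of changes had a Pearson correlation of 0.597 (Spearman 0.488), and across all named genes one of 0.819, as a description over genes of the same arrays.

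With IFN-gamma/LPS set directly against IL-4/IL-13, 30 members were lower and 1 was higher, beside 26.1% of all named genes called lower, 15.5% higher and 41.6% in either direction, with a median of -0.25. In the top 10% of signal 41.8% were called lower. Rpl30 changed by -0.66 ± 0.109 (limma adjusted p = 0.000281), Rps18 by -0.645 ± 0.090 (limma adjusted p = 6.62e-05) and Rpl36a, a large-subunit protein near the tRNA exit site, by -0.59 ± 0.067 (limma adjusted p = 1.16e-05). Rpl36a read 11.78 and 11.71 under IL-4/IL-13, 11.61 and 11.65 in untreated cells, and 11.09 and 11.22 under IFN-gamma/LPS. In this gene the IL-4/IL-13 arrays were the highest, with a change against untreated cells of 0.115 that did not pass (limma adjusted p = 0.255).

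Between the 2 groups given LPS, LPS/IL-4/IL-13 was lower than IFN-gamma/LPS in 5 members and higher in 1, beside 7.62% of all named genes called lower, 12.1% higher and 19.7% in either direction (17.9% lower in the top 10% of signal). The median change was 0.045, and it was -0.025 without the first LPS/IL-4/IL-13 array. The 5 were Rps7, Rps20, Rpl19, Rplp2 and Rpl23a, a protein at the rim of the exit tunnel. The call of Rpl23a, at -0.45 (limma adjusted p = 0.0307), was lost without the first IFN-gamma/LPS array (0.294), the second LPS/IL-4/IL-13 array (0.121) or either IL-4/IL-13 array (0.0606 and 0.0612). The count of higher members was 14 without the second LPS/IL-4/IL-13 array, and that of lower members was 2 without the first IFN-gamma/LPS array. The 1 higher member, Rpl12, was read by a dim probe set with no RefSeq mRNA. It measured 5.88 and 5.49 under IFN-gamma/LPS and 6.56 and 6.03 under LPS/IL-4/IL-13, a change of 0.61 ± 0.185 (limma adjusted p = 0.0375). That call was lost without either untreated array (limma adjusted p = 0.0543 and 0.0539), either IL-4/IL-13 array (0.0569 and 0.0571), the second IFN-gamma/LPS array (0.228) or the first LPS/IL-4/IL-13 array (0.294). Another 7 probe sets carry Rpl12 beside other symbols and had mean signals between 11.80 and 12.24. They were higher under LPS/IL-4/IL-13 than under IFN-gamma/LPS by 0.245 to 0.305. Under IFN-gamma/LPS against untreated cells they changed by -0.405 to -0.545. A further such probe set, dim like the one used (mean 6.17), stood at -0.005 and 0.24 in the same order. None of these differences was tested.

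Rps7, Rps20, Rpl19 and Rplp2 were lower under LPS/IL-4/IL-13 than in each of the 3 other groups, 4 of 57 members beside 358 of 19938 named genes (1.8%). In all 4, untreated cells were highest, and IFN-gamma/LPS and IL-4/IL-13 lay between. Rps7, a small-subunit protein that also binds the p53 regulator MDM2 in human cells, read 11.63 and 11.55 in untreated cells. It read 11.12 and 10.87 under IFN-gamma/LPS, 11.24 and 11.25 under IL-4/IL-13, and 10.64 and 10.67 under LPS/IL-4/IL-13. The last group lay below all other arrays, with a change of -0.935 ± 0.081 against untreated cells (1.91-fold lower, limma adjusted p = 1.13e-06) and of -0.34 against IFN-gamma/LPS (limma adjusted p = 0.0103, and 0.124 without the first IFN-gamma/LPS array). The fall of Rps7 under IL-4/IL-13 alone, -0.345 (limma adjusted p = 0.0105), was lost without the first untreated array (0.124) and without the first or second IL-4/IL-13 array (0.0678 and 0.0744).

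Rpl19, which lies at the rim of the exit tunnel and bridges the subunits, read 12.71 and 12.70 in untreated cells, 12.44 and 12.16 under IFN-gamma/LPS, 12.21 and 12.34 under IL-4/IL-13, and 11.78 and 11.97 under LPS/IL-4/IL-13. Its change under the combination was -0.83 ± 0.090 (limma adjusted p = 8.55e-06), the largest among the 10 members with a mean signal of 12 or more, and all 7 of its probe sets fell, by -0.885 to -0.625. Its fall under IL-4/IL-13, -0.43 (limma adjusted p = 0.00516), was lost without the first untreated array (0.0528) or the first IL-4/IL-13 array (0.0675), and its difference between LPS/IL-4/IL-13 and IL-4/IL-13, -0.40 (limma adjusted p = 0.00343), without the second IL-4/IL-13 array (0.0535). Rps20, in the head of the small subunit, read 12.12 and 12.13 in untreated cells and 11.36 and 11.43 under the combination, with the IFN-gamma/LPS and IL-4/IL-13 arrays between 11.67 and 11.89. Its change under the combination was -0.73 ± 0.073 (limma adjusted p = 4.09e-06).

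**Figure D3:**
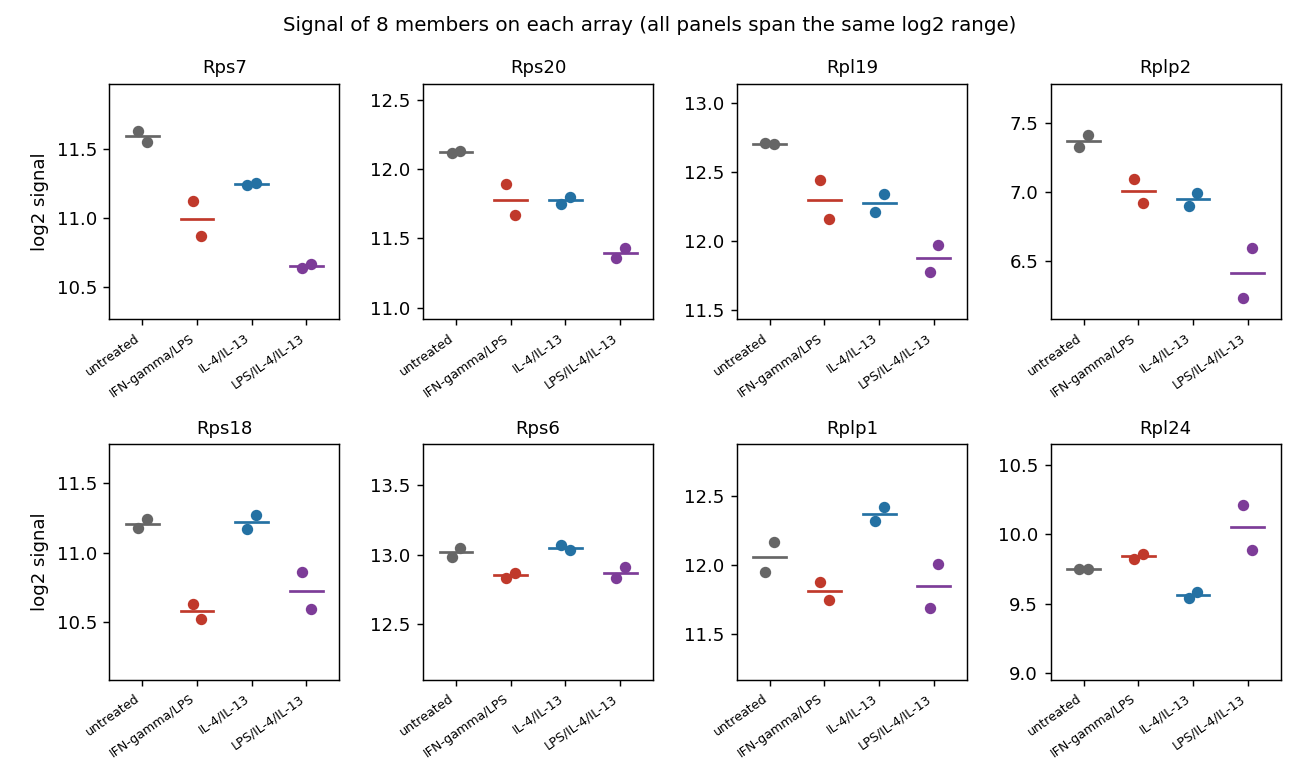
Log2 signal of 8 members on each array (points, 2 per group) with group means (lines), all panels spanning the same range. Rps7, Rps20, Rpl19 and Rplp2 are lowest under LPS/IL-4/IL-13, Rps18 is low in both groups given LPS, Rps6 barely moves, Rplp1 is highest under IL-4/IL-13 and Rpl24 under LPS/IL-4/IL-13.

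The changes under IL-4/IL-13 against untreated cells and under LPS/IL-4/IL-13 compared with IFN-gamma/LPS also share no array. Across the 57 members these had a Pearson correlation of 0.536 (Spearman 0.505), and across all named genes one of 0.138 (Spearman 0.00947). Among the 44 members with a mean signal above 9 it was 0.574. The 4 genes above were the overlap of the called sets, 40% of the 10 and 80% of the 5, beside 528 of all named genes, 21.5% of the 2459 and 34.8% of the 1519.

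**Figure D4:**
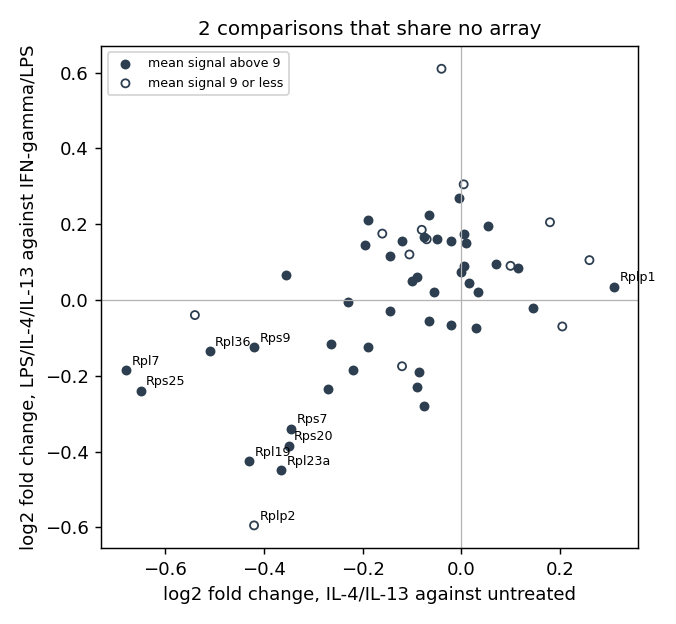
Log2 fold change of each member under IL-4/IL-13 against untreated cells (x axis) and under LPS/IL-4/IL-13 compared with IFN-gamma/LPS (y axis), filled where the mean signal is above 9. Rps7, Rps20, Rpl19, Rpl23a and Rplp2 lie low on both axes.

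The stalk that recruits the elongation factors is built from Rplp0, its base, and Rplp1 with Rplp2, its mobile arms. With LPS added to IL-4/IL-13, all 3 were lower, by -0.425, -0.52 and -0.535 (limma adjusted p = 0.000379, 0.00125 and 0.00506). Rplp0 read 12.77 and 12.71 in untreated cells, 12.28 and 12.20 under IFN-gamma/LPS, 12.65 and 12.72 under IL-4/IL-13, and 12.37 and 12.15 under LPS/IL-4/IL-13. Its changes of -0.50 under IFN-gamma/LPS (limma adjusted p = 7.38e-05) and -0.48 under LPS/IL-4/IL-13 (limma adjusted p = 0.000123) passed, and that of -0.055 under IL-4/IL-13 did not. Rplp1 read 11.95 and 12.17 in untreated cells and 12.32 and 12.42 under IL-4/IL-13, a difference of 0.31 ± 0.102 that missed the threshold (limma adjusted p = 0.0522). Both groups given LPS were lower than IL-4/IL-13 for Rplp1, by -0.555 ± 0.102 under IFN-gamma/LPS (limma adjusted p = 0.000636) and -0.52 ± 0.102 under LPS/IL-4/IL-13 (limma adjusted p = 0.00125). Rplp2, a dimmer gene on this array, was measured by 1 probe set, which lists no RefSeq mRNA. It read 7.32 and 7.41 in untreated cells and 7.09 and 6.92 under IFN-gamma/LPS. Under IL-4/IL-13 it read 6.90 and 6.99, and under LPS/IL-4/IL-13 6.23 and 6.59. Its change of -0.955 ± 0.128 under the combination was the largest of any member (limma adjusted p = 5.32e-05). Its smaller falls under IFN-gamma/LPS (-0.36, limma adjusted p = 0.0338) and IL-4/IL-13 (-0.42, limma adjusted p = 0.0387) depended on single arrays. The former call was lost without the first or second untreated array (0.0851 and 0.156) or the second IFN-gamma/LPS array (0.173), and the latter without either array of either group, with adjusted p between 0.116 and 0.187. The difference of Rplp2 between the groups given LPS, -0.595 (limma adjusted p = 0.00549), was lost without the first IFN-gamma/LPS array (0.0524).

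Members with known roles outside the ribosome mostly followed the others: of 9 measured, 8 were lower under IFN-gamma/LPS, 1 under IL-4/IL-13 and 6 under LPS/IL-4/IL-13. Of all named genes, 28.4%, 12.3% and 25.4% were called lower in the same order, and in the top 10% of signal 44.8%, 25% and 38.3%. The count under IL-4/IL-13 (11.1%) was thus near the share of all named genes. Rpl5 binds MDM2 together with Rpl11 and a ribosomal RNA. It read 11 on both untreated arrays, 10.52 and 10.49 under IFN-gamma/LPS, 10.93 and 10.94 under IL-4/IL-13, and 10.98 and 10.48 under LPS/IL-4/IL-13. Its change under IFN-gamma/LPS was -0.495 ± 0.122 (limma adjusted p = 0.0047). The 2 combination arrays spanned the distance between the untreated and the inflammatory level, and the change of -0.27 there did not pass (limma adjusted p = 0.0917, and 4.39e-05 at -0.52 without the first of these arrays). Rps3, which can act with NF-kB in human cells and also lies at the mRNA entry site, changed by -0.43 under IFN-gamma/LPS and by -0.615 under LPS/IL-4/IL-13 (limma adjusted p = 0.00266 and 0.000206). Rps19, a gene mutated in human Diamond-Blackfan anaemia, changed by -0.37 under IFN-gamma/LPS (limma adjusted p = 0.0123), a call lost without the first untreated array (0.0895) or the first IFN-gamma/LPS array (0.0578). Rpl38, which in mouse embryos is needed to translate certain Hox messages, changed by -0.365 and -0.43 in the groups given LPS (limma adjusted p = 0.000221 and 6.58e-05) and by -0.02 under IL-4/IL-13 (limma adjusted p = 0.836). Rpl26, which binds p53 mRNA, did not pass in any treatment.

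Rps6, the small-subunit protein phosphorylated downstream of mTOR, was the brightest member and among those that varied least. It read 12.98 and 13.05 in untreated cells, 12.83 and 12.87 under IFN-gamma/LPS, 13.07 and 13.03 under IL-4/IL-13, and 12.83 and 12.91 under LPS/IL-4/IL-13. Its changes of -0.165 and -0.145 in the groups given LPS passed (limma adjusted p = 0.0176 and 0.0366). The first was lost without the second untreated array (0.136) or the first IFN-gamma/LPS array (0.0861), and the second without either untreated array, either IL-4/IL-13 array or the first LPS/IL-4/IL-13 array, with adjusted p between 0.0569 and 0.22. Under quantile normalization neither passed (limma adjusted p = 0.221 and 0.543). Rpl10, almost as bright and one of the last proteins added to the large subunit in yeast, read 13.03 on both untreated arrays, 12.56 and 12.65 under IFN-gamma/LPS, 13.04 and 13.03 under IL-4/IL-13, and 12.64 and 12.75 under LPS/IL-4/IL-13. Its changes were -0.425 ± 0.054 under IFN-gamma/LPS (limma adjusted p = 2.86e-05) and -0.335 under LPS/IL-4/IL-13 (limma adjusted p = 0.000254), and 0.005 under IL-4/IL-13. The probe set used for Rpl34 had the smallest range of group means, 0.065, and read between 9.70 and 9.90 on all 8 arrays. The 4 brighter probe sets that carry Rpl34 beside other symbols changed by -0.24 to -0.345 under IFN-gamma/LPS and by -0.295 to -0.365 under LPS/IL-4/IL-13, as differences of group means with no test.

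Rpl24, which in yeast joins the large subunit late in its assembly, ran against the rest. It read 9.75 on both untreated arrays, 9.82 and 9.86 under IFN-gamma/LPS, 9.54 and 9.58 under IL-4/IL-13, and 10.21 and 9.89 under LPS/IL-4/IL-13. It was higher under LPS/IL-4/IL-13 than under IL-4/IL-13 by 0.49 ± 0.099 (limma adjusted p = 0.00156), with no overlap. Its rise of 0.30 against untreated cells (limma adjusted p = 0.0269) was lost without the first or second untreated array (0.118 and 0.107) or the first LPS/IL-4/IL-13 array (0.166). The difference between IFN-gamma/LPS and IL-4/IL-13, 0.28 (limma adjusted p = 0.0391), was lost without either array of the untreated, IFN-gamma/LPS or IL-4/IL-13 groups, with adjusted p between 0.0683 and 0.171.

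Of the 5 listed paralogues (Rpl3l, Rpl10l, Rpl39l, Rps4l and Rps27l), Rps27l, a p53 target gene, passed in 4 comparisons. It read 9.80 and 9.85 in untreated cells, 9.51 and 9.46 under IFN-gamma/LPS, 9.87 and 10.07 under IL-4/IL-13, and 9.62 and 9.31 under LPS/IL-4/IL-13. The groups given LPS were lower than IL-4/IL-13, by -0.485 ± 0.107 under IFN-gamma/LPS (limma adjusted p = 0.0025) and -0.505 ± 0.107 under LPS/IL-4/IL-13 (limma adjusted p = 0.00223). Its falls against untreated cells, -0.34 and -0.36 (limma adjusted p = 0.0191 and 0.0161), were lost without the first or second untreated array (0.0708 and 0.103 under IFN-gamma/LPS, 0.0654 and 0.0957 under LPS/IL-4/IL-13) and without the second array of the treated group (0.0761 and 0.113). The probe sets used for Rpl3l, Rpl10l, Rpl39l and Rps4l passed in no comparison, and the first 3 were the dimmest members. The other probe set of Rps4l changed by -0.435 under IFN-gamma/LPS, -0.275 under IL-4/IL-13 and -0.63 under LPS/IL-4/IL-13, with no test. Rpl32l, whose symbol also ends in l and which the list did not hold, read 8.53 and 8.84 in untreated cells, 8.32 and 8.43 under IFN-gamma/LPS, 8.80 and 8.77 under IL-4/IL-13, and 8.42 and 8.51 under LPS/IL-4/IL-13. It was lower under IFN-gamma/LPS than in untreated cells, by -0.31 (limma adjusted p = 0.0326), and both groups given LPS were lower than IL-4/IL-13, by -0.41 and -0.32 (limma adjusted p = 0.00875 and 0.0377).

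In both groups given LPS the members fell at each signal level above 9, and by the median those under 9 changed less. Under IFN-gamma/LPS the median change was -0.255 for the 13 members with a mean signal under 9, -0.3975 for 24 between 9 and 11, -0.4975 for 10 between 11 and 12, and -0.3375 for 10 at 12 or more. All 10 of the third class and 9 of the 10 brightest were called lower, against 3 of the 13 dimmest. Under LPS/IL-4/IL-13 the medians were -0.08, -0.4575, -0.425 and -0.3825 in the same order. Over the 44 members above 9, Pearson's r between signal and change was -0.0367 under IFN-gamma/LPS and -0.159 under LPS/IL-4/IL-13, and over all 57 it was -0.514 and -0.504. Of these 44, 38 were lower under IFN-gamma/LPS, 9 under IL-4/IL-13 and 36 under LPS/IL-4/IL-13. Called lower in the same order were 28.4%, 12.3% and 25.4% of all named genes. Among named genes in the top 10% of signal the shares were 44.8%, 25% and 38.3%, so the count under IL-4/IL-13 did not exceed that of bright genes.

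**Figure D5:**
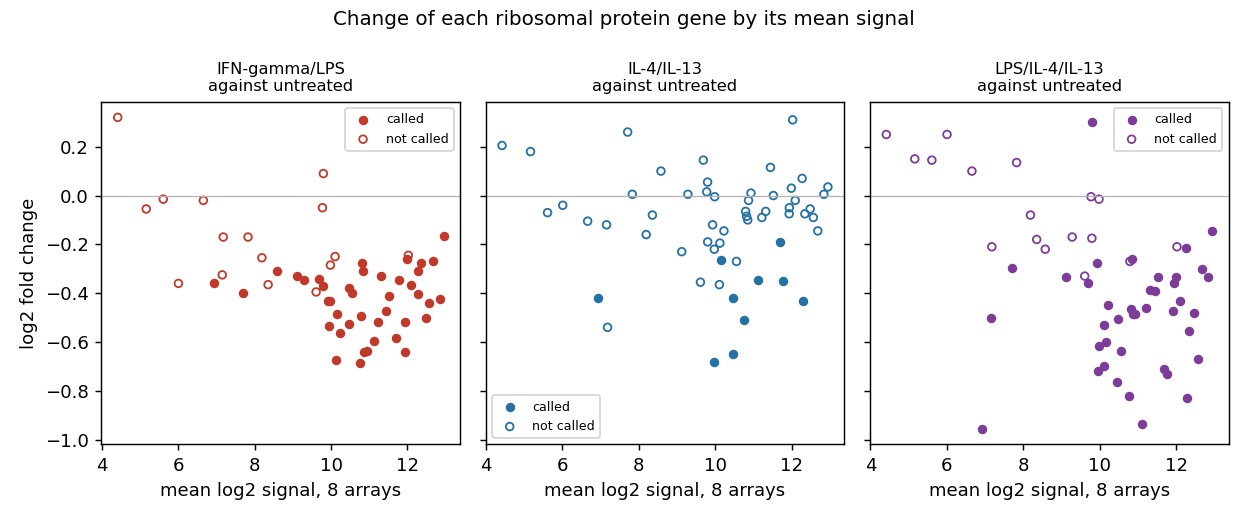
Log2 fold change of each member against untreated cells (y axis) by its mean log2 signal over the 8 arrays (x axis) in the 3 treatments, filled where called. In the groups given LPS nearly all members above a signal of 9 lie below 0, and the dimmest members lie around 0.

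Many members were read by more than 1 probe set, some of which may also read processed pseudogenes of the same family, so the choice of probe set was checked. The 57 members had 205 probe sets, 37 members had several, and 19 of these probe sets held values identical to another of the same gene. Under IFN-gamma/LPS all probe sets of a gene changed in the same direction in 36 of 37 genes, with a median spread of 0.095 between the largest and smallest change. The same held in 36 of 37 under LPS/IL-4/IL-13 and in 28 of 37 under IL-4/IL-13. Rps4l had the widest spread, since its 2 probe sets, equally dim, changed by -0.02 (the one used) and -0.435 under IFN-gamma/LPS and by 0.10 and -0.63 under LPS/IL-4/IL-13. In Rps15 the probe set used changed by -0.31 under IFN-gamma/LPS and the lowest of its 3 by -0.63.

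Other genes of the translation machinery were set beside the members, from lists of known factors. Of all named genes, 28.4% were called lower under IFN-gamma/LPS, 12.3% under IL-4/IL-13 and 25.4% under LPS/IL-4/IL-13. Ribosomal proteins whose symbols lie outside the pattern went the same way: all 4 measured were lower under IFN-gamma/LPS (median -0.605) and 3 under LPS/IL-4/IL-13. Rpsa, the laminin receptor protein of the small subunit, changed by -0.78 and -0.84, and Rps4x by -0.71 and -1.06. Of 14 measured translation factors and other genes whose mRNAs also carry a TOP tract, 12 were lower and 1 higher under IFN-gamma/LPS (median -0.4575). Under LPS/IL-4/IL-13 10 were lower (median -0.38), but 6 without the first untreated array or the second LPS/IL-4/IL-13 array. Under IL-4/IL-13 4 were lower, and 0 without any 1 of the untreated or IL-4/IL-13 arrays. Eif4b, which helps the helicase of initiation, changed by -1.32 ± 0.089 under IFN-gamma/LPS and -1.10 under LPS/IL-4/IL-13 (limma adjusted p = 8.68e-08 and 5.66e-07). Eef2, the factor that moves the ribosome along the message, changed by -0.74 and -0.73, and Eif3f by -0.91 and -0.73. Pabpc1, the poly(A)-binding protein, did not pass (0.08 and -0.045).

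Initiation and release factors went both ways. Of 29 measured, 14 were lower and 8 higher under IFN-gamma/LPS (median -0.115). Under IL-4/IL-13 3 were lower and 4 higher (median 0.015), and under LPS/IL-4/IL-13 6 were lower and 10 higher (median 0.025). Of all named genes, 28.4%, 12.3% and 25.4% were called lower and 23.6%, 7.83% and 20.3% higher in the same order. Without the first untreated array the counts of lower genes were 9, 1 and 2 in the same order, and without the second LPS/IL-4/IL-13 array they were 14, 5 and 2.

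Ribosome assembly factors did not follow the ribosomal proteins in every group. Of 60 measured, 30 were lower and 11 higher under IFN-gamma/LPS (median -0.295), while under IL-4/IL-13 2 were lower and 16 higher (median 0.21). The latter count was 9 and 7 without the first and second untreated array and 7 without the first IL-4/IL-13 array. Under LPS/IL-4/IL-13 16 were lower and 17 higher (median 0.0575), and the lower count fell without the first untreated array. Of all named genes, 25.4% were called lower and 20.3% higher there. These shares were 28.4% and 23.6% under IFN-gamma/LPS, and 12.3% and 7.83% under IL-4/IL-13. The nucleolar helicase Ddx21 rose by 0.95 ± 0.109 under IL-4/IL-13 (limma adjusted p = 6.21e-05) and the small nucleolar particle protein Nop56 by 0.75 ± 0.114 (limma adjusted p = 0.000569). Dkc1, the pseudouridine synthase, fell by 1.39 under IFN-gamma/LPS (limma adjusted p = 1.41e-06). Myc, a transcription factor for assembly genes, rose by 1.075 under IL-4/IL-13 and 2.485 under LPS/IL-4/IL-13 (limma adjusted p = 3.18e-05 and 3.4e-09), fell by 0.66 under IFN-gamma/LPS (limma adjusted p = 0.000357), and was higher by 3.145 under LPS/IL-4/IL-13 than under IFN-gamma/LPS (limma adjusted p = 4.75e-09). Of 14 RNA polymerase I genes 6 were lower under IFN-gamma/LPS, and 3 without the first untreated array.

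Mitochondrial ribosomal proteins, which serve a separate ribosome, were lower in 46 and higher in 5 of 77 genes under IFN-gamma/LPS (median -0.435). Under LPS/IL-4/IL-13 37 were lower and 9 higher (median -0.25). Under IL-4/IL-13 5 were lower and 8 higher (median 0.015), and the lower count fell without any 1 of the untreated or IL-4/IL-13 arrays. Of all named genes, 28.4%, 25.4% and 12.3% were called lower in the same order, and 23.6%, 20.3% and 7.83% higher. A list for translation control by mTOR and stress had 20 measured genes, and it also holds Mxd1 and the transcription factor Myc. Of these 20, 13 were lower and 3, Mxd1 among them, higher under IFN-gamma/LPS (median -0.6825). Under LPS/IL-4/IL-13 12 were lower and 6 higher (median -0.545), and under IL-4/IL-13 4 were lower and 2 higher (median -0.0225). Larp1 rose by 1.465 under IFN-gamma/LPS, 0.82 under IL-4/IL-13 and 1.375 under LPS/IL-4/IL-13 (limma adjusted p = 1.39e-08, 1.75e-05 and 3.15e-08). Mtor, Rheb and Rps6kb2 were not called under IFN-gamma/LPS (0.08, 0.16 and 0.025), where Mxd1 and Eif2ak2 rose by 3.22 and 2.5 (limma adjusted p = 1.11e-11 and 7.34e-10). Sesn1, an inhibitor of mTOR activation, changed by -5.005 and -4.67 in the groups given LPS (limma adjusted p = 9.1e-11 and 1.96e-10). Pdcd4, an inhibitor of the initiation helicase, changed by -3.59 and -4.305 (limma adjusted p = 5.39e-11 and 1.42e-11). These are RNA levels and do not measure translation.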

How the data were processed

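Total RNA of 8 bone marrow-derived macrophage samples was hybridised to Affymetrix MoGene arrays after biotin labelling, per the labels' protocols (RNA integrity above 9). The deposited column is named a MAS5 signal in the labels, but its numbers (1.46 to 13.71, array medians 6.12 to 6.20) fit log2 signal, and they were used so. How the authors corrected background and normalized is not given in the sources used, and no detection calls came with the values. The number of arrays, 2 a group, limits the precision.

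Of 35556 probe sets, 21789 carried 1 symbol, 1621 several and 12146 none in the platform annotation. Entrez identifiers of 21698 were found in RefSeq (GRCm38.p6), and 0 symbols differed. No per-sample column was left unmapped. Each of the 19938 named genes was represented by its probe set of highest mean over the 8 arrays.

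One limma model (version 3.58.1, R 4.3.3) held all 4 groups, using lmFit, contrasts, and eBayes with trend (4 residual and 7.55 prior degrees of freedom). In simulated data with normal noise, it found 6.12% to 19.5% of log2 changes of 0.3 and 45.1% to 58.9% of those of 0.5. Only 38 to 60 of 19938 genes were changed there at each size in a treated group. Far more genes were called in the real data, which makes the adjusted threshold less strict. The simulated shares therefore do not measure how many such changes were found here. A member that changes this little can go uncalled. P-values were adjusted by Benjamini-Hochberg over all named genes in each comparison. Calls were made at an adjusted p under 0.05. Errors of changes are standard errors of this model. Lists are described by counts and medians.

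Members and gene lists were chosen with earlier results of these data known. Named with values were the 6 members with the largest called rise and fall in each comparison, those of the P-stalk, with paralogue or extra-ribosomal roles, the 3 brightest and dimmest, the 8 with the widest and the 4 with the narrowest range of group means. Rps15 was named for its probe sets after its values were seen. Of the other lists, genes with large called changes or none were named, some picked after their values were seen. Promoter sequences are RefSeq's (GRCm38.p6). Alternatives were quantile normalization, median centring, no trend, fits of only the 4 arrays compared, a replicate block, the mean over probe sets, leaving out dim genes (the lowest 40% by mean signal) and leaving out each array.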

Additional observations from a re-analysis of the deposited data

How the results depend on the processing

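Counts of members called lower stayed within 1.5 times of their value in 4 of the 6 comparisons under every alternative run. They ranged over 35 to 47 under IFN-gamma/LPS against untreated (41 as reported), 32 to 44 under LPS/IL-4/IL-13 against untreated (39), 25 to 38 under LPS/IL-4/IL-13 compared with IL-4/IL-13 (32) and 22 to 33 under IFN-gamma/LPS compared with IL-4/IL-13 (30). Lower counts under IL-4/IL-13 against untreated (10) became 6 without the trend and 19 in the fit of only the 4 arrays compared, and ranged from 2 to 15 when 1 array was left out. Those under LPS/IL-4/IL-13 compared with IFN-gamma/LPS (5) became 8 without dim genes, 3 without the trend and 3 with only 4 arrays, and ranged from 2 to 7 when 1 array was left out. The median change of that comparison, 0.045, ranged from -0.025 to 0.115 and was -0.025 without the first LPS/IL-4/IL-13 array. Higher calls were few. Under IL-4/IL-13 against untreated, 0 became 1 without dim genes, 1 with only 4 arrays, 1 with the replicate block and 2 after quantile normalization (0 to 1 when 1 array was left out). Under LPS/IL-4/IL-13 against untreated, 1 became 0 with the mean over probe sets, 0 without the trend and 0 with only 4 arrays (0 to 3). Under LPS/IL-4/IL-13 compared with IFN-gamma/LPS, 1 became 3 without dim genes, 3 after quantile normalization, 0 without the trend and 0 with only 4 arrays (0 to 14). Under IFN-gamma/LPS against untreated 0 became 1 without the trend (0 to 1), under IFN-gamma/LPS compared with IL-4/IL-13 1 became 0 without the trend and 2 after quantile normalization (0 to 1), and under LPS/IL-4/IL-13 compared with IL-4/IL-13 1 ranged from 1 to 4. Rpsa under IL-4/IL-13, 0.165 with the brightest probe set, was -0.308 with the mean over its probe sets (limma adjusted p = 0.0278). Over the named members, 2328 repeats kept side and direction, 109 lost a call and 50 gained one. The cause of these moves was not tested. The correlations of same-numbered arrays' deviations ran from -0.358 to 0.217 and cannot show whether the samples were paired. With 2 arrays a group the deviations mirror each other, so a negative value can mean that arrays of opposite number go together. With the number as a replicate block 43 members were lower under IFN-gamma/LPS and 34 under LPS/IL-4/IL-13 compared with IL-4/IL-13. The unknown normalization, the ceiling of bright probe sets and 2 arrays a group limit the sizes given.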

Other observations

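Ribosomal protein genes that share their probe sets with other symbols showed the same pattern as the members. Of 233 probe sets that carry several symbols including a ribosomal protein (34 such symbols, median signal 11.4), 224 were lower and 9 higher under IFN-gamma/LPS than in untreated cells, with a median change of -0.395. Under LPS/IL-4/IL-13 223 were lower and 10 higher (median -0.41), and under IL-4/IL-13 195 were lower and 36 higher (median -0.10). These are differences of group means with no test, and probe sets of one gene or pseudogene family share sequence. The 87 probe sets that hold no member's symbol, from 15 genes, had medians of -0.48, -0.485 and -0.145 in the same order.

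Among these genes Rpl3, which lies at the peptidyl transferase centre, had a median of -0.73 over 7 probe sets under IFN-gamma/LPS, -0.655 under LPS/IL-4/IL-13 and -0.10 under IL-4/IL-13. Rpl37 had -0.79, -0.8725 and -0.4225 over 2 probe sets. Rpl11, the partner of Rpl5, had -0.525, -0.43 and -0.135 over 6. Rpl13a, which in human myeloid cells is released from the ribosome after interferon gamma to silence inflammatory mRNAs, had 4 probe sets that differed in direction. The brightest (mean 10.8) stood at -0.91, -0.73 and -0.03 and the next (9.97) at -0.67, -0.645 and -0.18 in the order used for Rpl3, while the other two, dimmer probe sets stood at 0.465 and 0.155 under IFN-gamma/LPS and 1.565 and 0.75 under LPS/IL-4/IL-13. Rps24 and Rps27 went the other way under IFN-gamma/LPS, with 0.295 over 3 probe sets and 0.09 over 2, and stood at 0.21 and 0.3025 under LPS/IL-4/IL-13.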
